A study of Mus musculus with 6 samples.

Results

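The LY6 surface proteins are a family of small proteins held on the outer leaflet of the cell membrane by a glycosylphosphatidylinositol (GPI) anchor. The 8 mouse genes Ly6a, Ly6c1, Ly6c2, Ly6d, Ly6e, Ly6i, Ly6k and Ly6g were taken by symbol from the 52550 genes in the files. Transcripts were measured by mRNA sequencing of plasmacytoid dendritic cells from the spleen of C57BL/6 mice. In 3 libraries the cells had received R837 together with taurine for 12 hours, and in the other 3 libraries R837 alone for 12 hours. R837 (imiquimod) is a small-molecule agonist of the endosomal receptor TLR7, and taurine is an amino sulfonic acid. All cells were stimulated, and cells without R837 were not analysed here, so the values do not show what R837 itself did to these genes. The sources used here do not give the doses, the sorting of the cells or whether libraries came from separate mice or cultures. The p-values therefore measure only the spread between these libraries, which may be technical.

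LY6 proteins share a compact fold stabilised by disulfide bonds, and several serve as antibody markers of mouse immune cells. Ly6a encodes Sca-1, the classical marker of mouse haematopoietic stem cells, which interferon also induces in lymphocytes. Ly6c1 and Ly6c2 encode the antigens read as Ly6C on monocytes and on mouse plasmacytoid dendritic cells. Ly6d marks lymphoid progenitors of the B cell lineage and progenitors of plasmacytoid dendritic cells. Ly6e is an interferon-stimulated gene with roles in virus entry, Ly6g is the marker of mouse neutrophils, and Ly6k is known from testis and sperm function. Ly6i is a close relative of Ly6a.

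The genes lie within 397 kb of chromosome 15 (74762056 to 75159126 on mm10, as in the files), 6 on the minus strand and 2 on the plus strand. Their longest annotated coding sequences, without the stop codon, run from 127 codons for Ly6d to 154 for Ly6k. Ly6c1 and Ly6c2 were the most alike, with 93.8% identical bases over 386 aligned coding bases, followed by Ly6a and Ly6i with 86.3% over 402. Ly6d and Ly6e shared 64.4% with each other. Likeness matters for counting: 21.5% of the 50-base windows in Ly6c1 transcripts also occurred in Ly6c2, and 11.1% in Ly6a. Over all other annotated genes, shared windows made up 32.8% for Ly6c1, 19.0% for Ly6a, 14.5% for Ly6c2 and 4.76% for Ly6i. For Ly6k they made up 32.7%, all shared with the antisense gene Gm17189. No such window of Ly6d or Ly6e occurred in another annotated gene. Counts of Ly6c1, Ly6a, Ly6c2, Ly6k and, less so, Ly6i are thus uncertain in a way that those of Ly6d and Ly6e are not.

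The sequence before the start site was compared for the Ly6c genes, outside the coding part. The RefSeq promoter table (GRCm38.p6) held 3 of the 8 genes, Ly6c1, Ly6c2 and Ly6g. The 250 bases before the outer start of Ly6c1 (chr15:75048838-75049087, minus strand) and of Ly6c2 (chr15:75111972-75112221, minus strand) are shown 5′ to 3′, because these 2 genes share transcript windows and had changes of opposite sign. Capitals mark the longest run of bases present in both.
Ly6c1: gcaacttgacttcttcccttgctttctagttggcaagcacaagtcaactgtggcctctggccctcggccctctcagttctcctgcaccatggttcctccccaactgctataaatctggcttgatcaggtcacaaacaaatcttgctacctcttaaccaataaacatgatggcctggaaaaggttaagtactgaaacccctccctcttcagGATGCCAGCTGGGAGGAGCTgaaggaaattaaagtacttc
Ly6c2: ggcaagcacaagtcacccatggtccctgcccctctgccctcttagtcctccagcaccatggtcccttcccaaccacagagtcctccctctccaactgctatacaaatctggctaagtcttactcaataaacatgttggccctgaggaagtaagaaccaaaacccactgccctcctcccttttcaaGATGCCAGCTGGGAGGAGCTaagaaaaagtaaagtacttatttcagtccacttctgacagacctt
The windows were 75.9% identical over 216 aligned bases, and the shared run of 20 bases ends 20 bases before the Ly6c1 start and 45 bases before the Ly6c2 start. Each was more like the windows of the 2 Ly6g starts, over 173 to 226 aligned bases. These values were 83.5% and 87.7% for Ly6c1, and 80.3% and 83.6% for Ly6c2. From the other listed start of Ly6c1, identity to the Ly6c2 windows was 59.6% and 62.1%. Both strands were searched for the core of the interferon-stimulated response element, GAAANNGAA, and for the interferon-gamma activated site, TTCNNNGAA. Neither string occurred in the windows of Ly6c1, Ly6c2 or Ly6g, while 7.13% of 32851 mouse promoter windows of that length held the first string and 7.02% the second. These strings can overlap each other, and their absence says nothing of other sites or of sequence outside the window.

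The libraries held 36174132, 38392654 and 34449848 reads on genes in the R837 plus taurine replicates 1, 2 and 3, and 37848601, 36764444 and 33585080 in the R837 replicates. Levels are the deposited normalized counts, each a whole number of reads scaled by a factor of its library. Means carry the SD over n = 3 libraries, and changes are differences of log2(normalized count + 1) in R837 plus taurine minus R837. All 22 listed markers of plasmacytoid dendritic cells passed the filter on low values, among them Siglech, with 11361 ± 889 with taurine and 11770 ± 1434 with R837 alone. Of the 22, limma called 3 higher (Irf7, Bst2 and Cox6a2, with Irf7 and Bst2 shared with the interferon-stimulated list) and 7 lower, such as Tcf4 (log2 change -0.51) and Runx2 (-0.60). Their median change was -0.09, and their part in the LY6 values was not tested. Among 15265 tested genes limma (abundance trend, Benjamini-Hochberg adjusted p below 0.05) called 6.41%, namely 573 as higher in taurine libraries and 406 as lower. In RNA from a whole cell preparation, fewer cells of a type and less RNA per cell cannot be told apart.

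None of the 7 LY6 genes that passed the filter was called with taurine by this test, 5 having a log2 change above 0 and 2 below. The median change of the 7 was 0.16, beside -0.01 over all tested genes. At an unadjusted p under 0.05, 4 of the 7 passed (Ly6d, Ly6e and Ly6k higher, Ly6c1 lower), beside 23.7% of all tested genes. The 3 libraries of each group did not overlap for 3 of the 7, Ly6d, Ly6e and Ly6k, beside 29.6% of all tested genes. On the recovered reads, edgeR called none of the 7 (4 at an unadjusted p under 0.05) where it called 6.22% of genes. DESeq2 called 1, Ly6d, where it called 16.9% of the genes to which it gave an adjusted p.

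**Figure D1:**
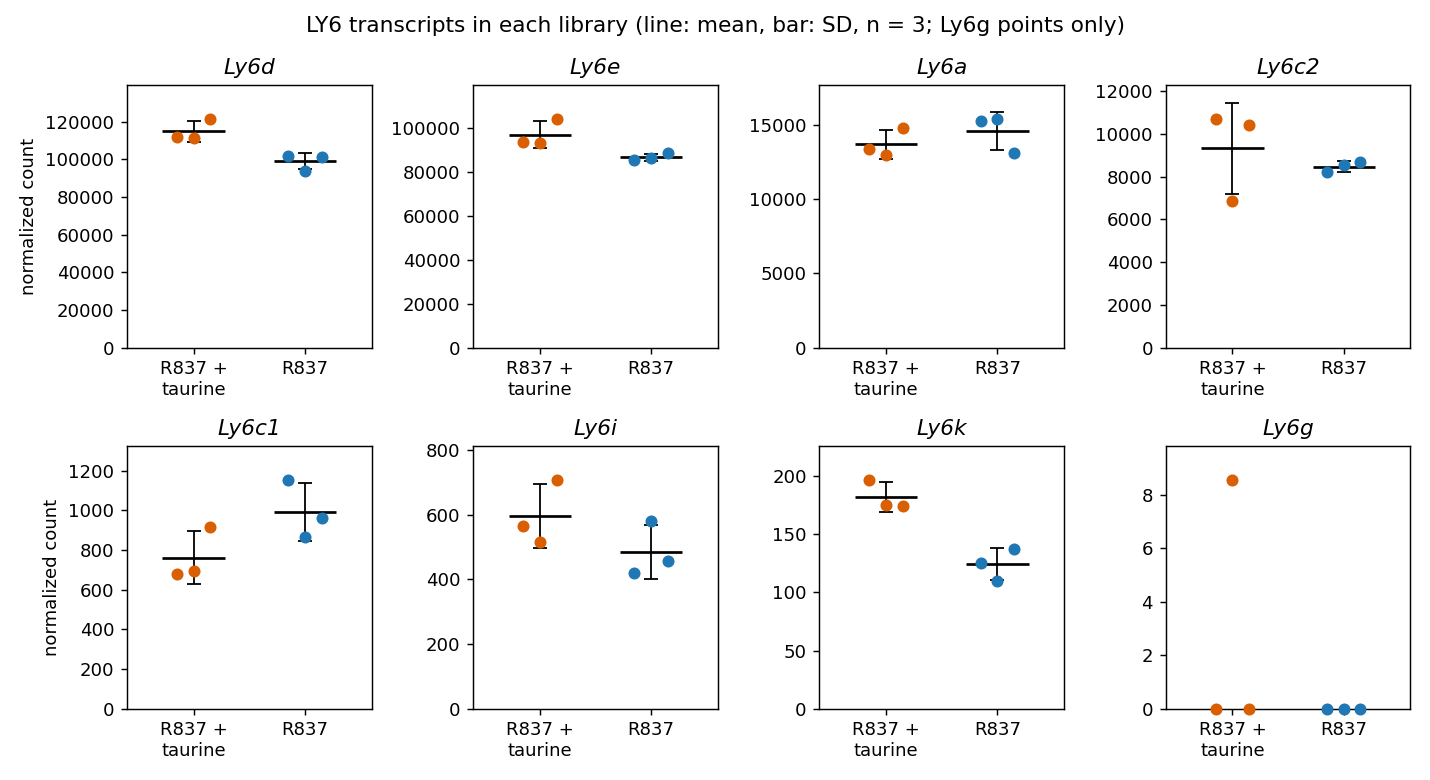
Normalized count (vertical axes, each from 0) of each LY6 gene in the R837 plus taurine libraries (orange) and the R837 libraries (blue), with the mean and SD of 3 libraries. The groups separate for Ly6d, Ly6e and Ly6k, overlap for Ly6a, Ly6c2, Ly6c1 and Ly6i, and Ly6g, drawn as points only, is at 0 in 5 of the 6 libraries.

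Ly6d and Ly6e dominated the family. Together they took 89.0%, 90.6% and 89.3% of all LY6 reads in R837 plus taurine replicates 1, 2 and 3, and 88.2%, 87.6% and 89.0% in the R837 replicates. By mean normalized count Ly6d ranked 18 and Ly6e 22 among the 15265 tested genes. All 8 genes together took 0.631%, 0.617% and 0.690% of the reads on genes in the R837 plus taurine replicates, against 0.594%, 0.581% and 0.609% in the R837 replicates. The lowest taurine library thus lay just above the highest R837 library. This sum mainly follows Ly6d and Ly6e and does not describe the other members. Of all tested genes, 29.6% had groups that did not overlap.

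Corrected for exon length, the order of levels was the same in every library down to Ly6c2. Ly6d stood at 4221 ± 205 RPKM (reads per kb of exon, scaled to each library's reads on genes) in R837 plus taurine libraries and 3760 ± 167 in R837 libraries. Ly6e, the next, stood at 700.4 ± 44.3 RPKM with taurine and 648 ± 19.2 with R837 alone. Ly6a followed at 294 to 336 RPKM in taurine libraries and 310 to 360 in R837 libraries. Ly6c2 stood at 93.1 ± 21.3 RPKM with taurine and 87.5 ± 3.44 with R837 alone. The ranges of these 4 genes over the 6 libraries did not overlap one another. The next neighbours did overlap: Ly6c1 ran from 11.1 to 19.3 and Ly6i from 10.1 to 16.7 over all libraries. Ly6k was lowest of the 7, between 3.74 and 6.50. Exon length here is the union of all annotated exons, so a gene with many alternative exons, such as Ly6e with 3784 bases, is placed lower than its main transcript alone would be.

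**Figure D2:**
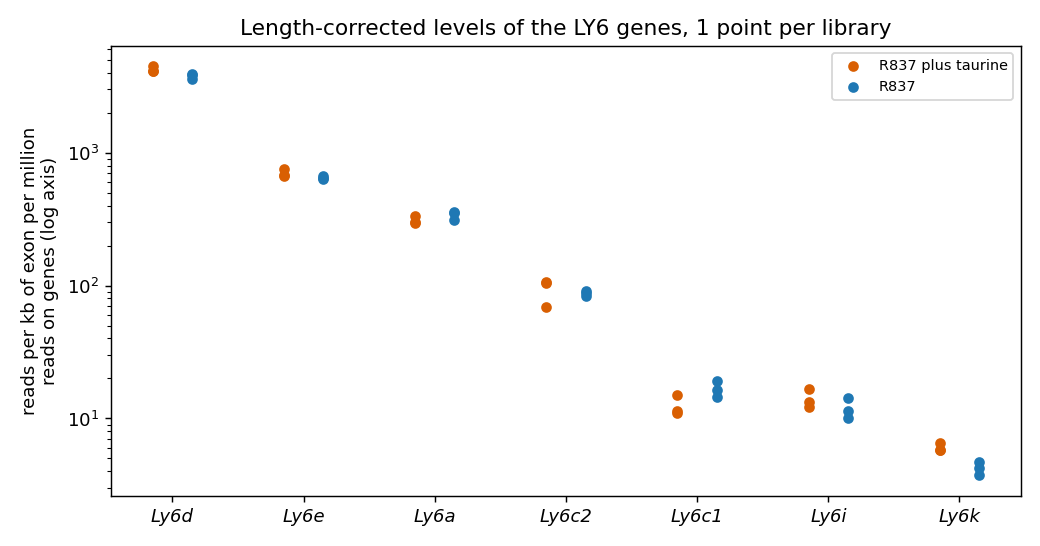
RPKM over the reads on genes (log axis) for the 7 LY6 genes past the filter, 1 point per library, R837 plus taurine in orange to the left of R837 in blue. Ly6k lies between 3.74 and 6.50 and Ly6d between 3570 and 4457, and among neighbours in this order only Ly6c1 and Ly6i overlap.

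Ly6d (ENSMUSG00000034634.7, chromosome 15, 74762056 to 74763620, minus strand) was the LY6 gene nearest to the threshold. Its normalized count was 111584, 111439 and 121261 in R837 plus taurine replicates 1, 2 and 3, against 101660, 94008 and 101020 in the R837 replicates. Every taurine library lay above every R837 library, with replicate 3 of the taurine group highest. The means were 114762 ± 5629 with taurine and 98896 ± 4245 with R837 alone, a ratio of 1.16. The log2 change was 0.21 ± 0.06 (SE), with a limma adjusted p of 0.0625. DESeq2 gave 0.22 with an adjusted p of 0.0434, and limma without R837 replicate 3 gave 0.23 with an adjusted p of 0.0476, so both would call it. With trends over exon length and GC content removed, the change was 0.09 (adjusted p = 0.246), and under quantile normalization 0.05 (adjusted p = 0.642). Library deviations from the gene means correlated with exon length, over genes, with a Spearman rho of -0.203 to -0.100 in the taurine libraries and 0.0443 to 0.147 in the R837 libraries. Ly6d is the shortest of the 8 genes, with 744 exonic bases, and the part of this trend in its value was not tested beyond that correction.

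Since Ly6d also marks the B cell lineage, the 12 listed B cell markers were set beside it. None of the 10 that passed the filter was called by limma. The normalized counts of all 12 summed to values from 2260 to 2852 in R837 plus taurine libraries and from 2107 to 3195 in R837 libraries, so the groups overlapped. Pax5 made up most of this sum, with means of 1564 with taurine and 1480 with R837 alone. Fcer2a and Cd22 were lower with taurine without overlap (log2 change -1.68 and -0.31, limma adjusted p = 0.0654 and 0.250). No tested marker was higher without overlap, and the median change was -0.13. Vpreb3 was at 0 in every library. The part of B cells in the Ly6d value was not tested. Of 12 T and NK cell markers, 6 were tested and none was called by limma. All 12 summed to 4270 to 4949 with taurine and 4649 to 5553 with R837 alone, with Cd3d, Cd3g and Gzma at 0 throughout.

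Ly6e (ENSMUSG00000022587.14, chromosome 15, 74955051 to 74959905, plus strand), an interferon-stimulated gene, had normalized counts of 93572, 93022 and 103993 in the R837 plus taurine replicates and 85335, 86169 and 88530 in the R837 replicates. The groups did not overlap, and taurine replicate 3 again stood above the rest. The means were 96863 ± 6181 with taurine and 86678 ± 1657 with R837 alone, 11.7% higher with taurine. The log2 change of 0.16 ± 0.06 (SE) did not pass (limma adjusted p = 0.139), and under quantile normalization it was -0.05, the opposite sign. The 95% interval of the change was 0.03 to 0.29. With length and GC trends removed the change was 0.10 (adjusted p = 0.212).

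Ly6a (ENSMUSG00000075602.10, chromosome 15, 74994877 to 74998031, minus strand), which encodes Sca-1, had 13332, 12933 and 14784 in the R837 plus taurine replicates and 15229, 15359 and 13077 in the R837 replicates. R837 replicate 3 lay within the taurine range, so the groups overlapped. The means were 13683 ± 974 with taurine and 14555 ± 1282 with R837 alone. The log2 change was -0.09 ± 0.08 (SE) with a 95% interval of -0.28 to 0.10 (limma adjusted p = 0.580). Without R837 replicate 3 the change was -0.16 (adjusted p = 0.197), and without R837 replicate 2 it was -0.05.

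Sca-1 also marks endothelial cells and blood progenitors, so 12 markers of those were read beside Ly6a. Of the 9 tested, limma called 0 higher and 2 lower, the receptor gene Kdr and the cadherin gene Cdh5, with log2 changes of -0.45 and -0.49. The normalized counts of all 12 summed to values from 85693 to 91592 with taurine and from 102907 to 122233 with R837 alone. These sums did not overlap, beside 29.6% of all tested genes without overlap. Emcn and Mecom were at 0 in every library. The part of such cells in the Ly6a value was not tested. Of 10 conventional dendritic cell markers, 9 were tested, with 0 higher and 2 lower (Flt3 and Clec9a), and sums over all 10 of 29164 to 30995 with taurine against 34946 to 37036 with R837 alone. The median log2 change of the 9 was -0.28, but not all were lower. Batf3 had a change of 0.54 without overlap of the groups, and Zbtb46 0.12 (limma adjusted p = 0.158 and 0.466). The largest parts of the sum were Flt3, with means of 9517 with taurine and 12401 with R837 alone, and Itgax, with 9180 and 11165. Xcr1 averaged 46.8 with taurine and 47.8 with R837 alone. Whether the share of conventional dendritic cells differed between the groups was not tested.

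Ly6i (ENSMUSG00000022586.11, chromosome 15, 74979534 to 74983430, minus strand), the close relative of Ly6a, had 564, 516 and 707 in the R837 plus taurine replicates and 419, 579 and 456 in the R837 replicates. The 2 groups overlapped through R837 replicate 2. The means were 596 ± 99.3 with taurine and 485 ± 84.1 with R837 alone, and the log2 change was 0.30 ± 0.17 (SE, limma adjusted p = 0.332). With 1 library left out it ran from 0.17 without taurine replicate 3 to 0.43 without R837 replicate 2.

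Ly6c1 and Ly6c2 differed in level and in the sign of their change. Ly6c2 (ENSMUSG00000022584.14, chromosome 15, 75108158 to 75111970, minus strand) had 10681, 6869 and 10425 in the R837 plus taurine replicates and 8197, 8543 and 8677 in the R837 replicates. The R837 libraries lay close together, while the taurine libraries spread to both sides of them, with replicate 2 the lowest of all 6. The means were 9325 ± 2131 with taurine and 8472 ± 248 with R837 alone, and the log2 change was 0.11 ± 0.15 (SE, limma adjusted p = 0.711). This value rested on single taurine libraries: it was 0.32 without replicate 2 (adjusted p = 0.0821), 0.02 without replicate 3 and -0.00133 without replicate 1.

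Ly6c1 (ENSMUSG00000079018.10, chromosome 15, 75044018 to 75048830, minus strand) had 677, 694 and 915 in the R837 plus taurine replicates and 1154, 865 and 964 in the R837 replicates. Taurine replicate 3 exceeded R837 replicate 2, so the groups overlapped. The means were 762 ± 133 with taurine and 994 ± 147 with R837 alone, and the log2 change was -0.39 ± 0.16 (SE, limma adjusted p = 0.176). Reads of Ly6c1 made up 5.96%, 9.18% and 8.07% of the summed Ly6c1 and Ly6c2 reads in the R837 plus taurine replicates, against 12.3%, 9.20% and 10.0% in the R837 replicates. The log2 ratio of Ly6c1 to Ly6c2 within a library was lower by 0.50 with taurine, with a mean of -3.60 ± 0.34 with taurine and -3.10 ± 0.24 with R837 alone. By exact permutation (two-sided) p was 0.1, the smallest that 3 against 3 allows (0.167 adjusted over 10 ratios). The ratios of taurine replicate 2 and R837 replicate 2, -3.31 and -3.30, were nearly equal. With the reads of both genes summed, which does not depend on how any reads matching both were split between them, the log2 change was 0.07 (limma adjusted p = 0.827). The sums were 11359, 7563 and 11340 with taurine and 9351, 9409 and 9641 with R837 alone.

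Ly6C is also high on monocytes, so 14 monocyte and macrophage markers were read beside these genes. Of the 13 tested, Fcgr1 was higher (log2 change 0.86) and Cx3cr1 lower (-0.59) by limma. The normalized counts of all 14 summed to values from 17939 to 21669 with taurine and from 17985 to 19066 with R837 alone. The part of such cells in the Ly6c values was not tested.

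Ly6k (ENSMUSG00000044678.11, chromosome 15, 74796874 to 74799986, minus strand), known from sperm function in mice, had the largest change among the 7 tested genes, at a low level. It had 197, 175 and 174 in the R837 plus taurine replicates and 125, 110 and 137 in the R837 replicates, and the groups did not overlap. The means were 182 ± 12.9 with taurine and 124 ± 13.9 with R837 alone, 46.5% higher with taurine. The log2 change was 0.55 ± 0.19 (SE) with a 95% interval of 0.13 to 0.97, and it did not pass (limma adjusted p = 0.114). Its exons overlap those of Gm17189, an antisense gene on the plus strand, over 395 bases. Gm17189 was listed at 0 reads in every library, so adding its reads left the Ly6k change at 0.55. The strand setting is not known, so within the shared 395 bases reads of this pair cannot be told apart.

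Ly6g (ENSMUSG00000022582.4, chromosome 15, 75155240 to 75159126, plus strand), the defining surface marker of mouse neutrophils, was below the filter. It had 9 reads in R837 plus taurine replicate 2 and 0 reads in the other 2 taurine libraries and in all 3 R837 libraries. A count of 0 allows up to 3 reads per library, which here corresponds to a normalized count of at most 3.18, counting error only. The 12 neutrophil markers summed to 2623 to 2954 in R837 plus taurine libraries and 1638 to 2444 in R837 libraries, without overlap. For comparison, 29.6% of all tested genes had groups that did not overlap, and limma called 6.41%. Among the 11 tested, limma called 1 higher, the granule protein gene Ngp (log2 change 0.76), and 0 lower. The markers did not all move together: Camp and Ltf had changes of -0.57 and -0.10, while the other tested ones were above 0. Whether the 9 reads came from neutrophils was not tested.

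**Figure D3:**
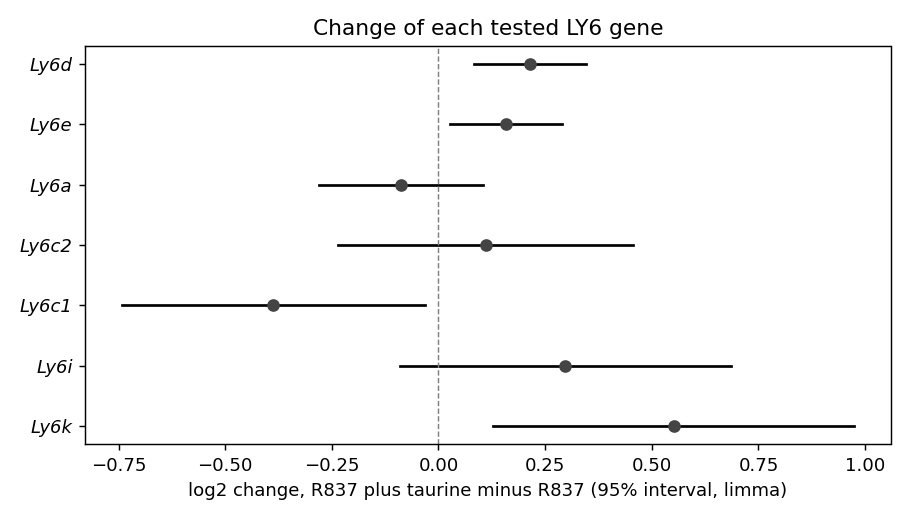
Log2 change in R837 plus taurine minus R837 with its 95% interval from limma for the 7 tested LY6 genes, from the most abundant per length at the top to the least at the bottom. The intervals of Ly6d, Ly6e and Ly6k lie above 0 and that of Ly6c1 below it, before any adjustment over 15265 genes, and those of Ly6a, Ly6c2 and Ly6i include 0.

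The LY6 genes were then set beside interferon-stimulated genes, since Ly6e and Ly6a belong to the interferon-inducible members of the family. Of 47 listed interferon-stimulated genes, without any LY6 gene, 30 were higher and 0 lower with taurine by limma, with a median log2 change of 0.41. Cmpk2, a nucleotide kinase gene, had a change of 0.88, Cxcl10, a T cell chemokine gene, 0.93, the antiviral Mx1 0.55 and the transcription factor Irf7 0.65 (adjusted p = 0.00238, 0.00286, 0.00286 and 0.00296). Within each library the log2 ratio of a LY6 gene to the mean of this list was compared between the groups. Because the list itself rose with taurine, a gene without any change would also have a lower ratio. The share of all tested genes whose ratio to this list would not overlap was not counted. A lower ratio is thus no result particular to LY6 genes. For Ly6e the ratio was 2.70 ± 0.08 with taurine and 2.93 ± 0.02 with R837 alone, lower by 0.23 with no overlap. For Ly6a it was -0.12 ± 0.09 with taurine and 0.35 ± 0.15 with R837 alone, lower by 0.47 with no overlap. The ratios of Ly6d, whose own log2 change was 0.21, and of Ly6c1 were lower by 0.17 and 0.77, also without overlap. Each of these 4 had an exact two-sided permutation p of 0.1, the smallest the design allows, and 0.167 adjusted over the 10 ratios, so none could pass 0.05. The ratios of Ly6c2, Ly6i and Ly6k had differences of -0.27, -0.09 and 0.17 with overlapping groups (exact permutation p = 0.2, 0.6 and 0.3).

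The other genes with a LY6/uPAR domain were mostly silent. Of 36 found in the files, 20 had no read in any library and 6 passed the filter, with 0 called in either direction by limma and a median log2 change of 0.07. Plaur, the urokinase receptor, averaged 37748 ± 1003 with taurine and 39333 ± 3167 with R837 alone (log2 change -0.06, adjusted p = 0.665). Lynx1, a modulator of nicotinic receptors in brain, averaged 22560 ± 375 with taurine and 19817 ± 913 with R837 alone, without overlap (log2 change 0.19, adjusted p = 0.0933). The scarcer Bambi and Cd59a had changes of 1.28 and -0.99 (adjusted p = 0.170 and 0.203). Bambi encodes a decoy receptor for TGF-beta family ligands and Cd59a an inhibitor of complement.

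The machinery that builds and attaches the GPI anchor, on which LY6 proteins depend, was detected throughout. All 30 listed genes found in the files passed the filter, with 0 called by limma in either direction and a median log2 change of -0.00391. The smallest p belonged to Pigm, a mannosyltransferase of anchor synthesis, with 1657 ± 105 with taurine and 2173 ± 195 with R837 alone (log2 change -0.39, adjusted p = 0.0553). Gpld1, Pigl and Pigq followed with -0.47, 0.67 and -0.28 (adjusted p = 0.110, 0.110 and 0.239). Gpld1 encodes a phospholipase that cleaves GPI anchors, while Pigl and Pigq encode proteins of early anchor synthesis.

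**Figure D4:**
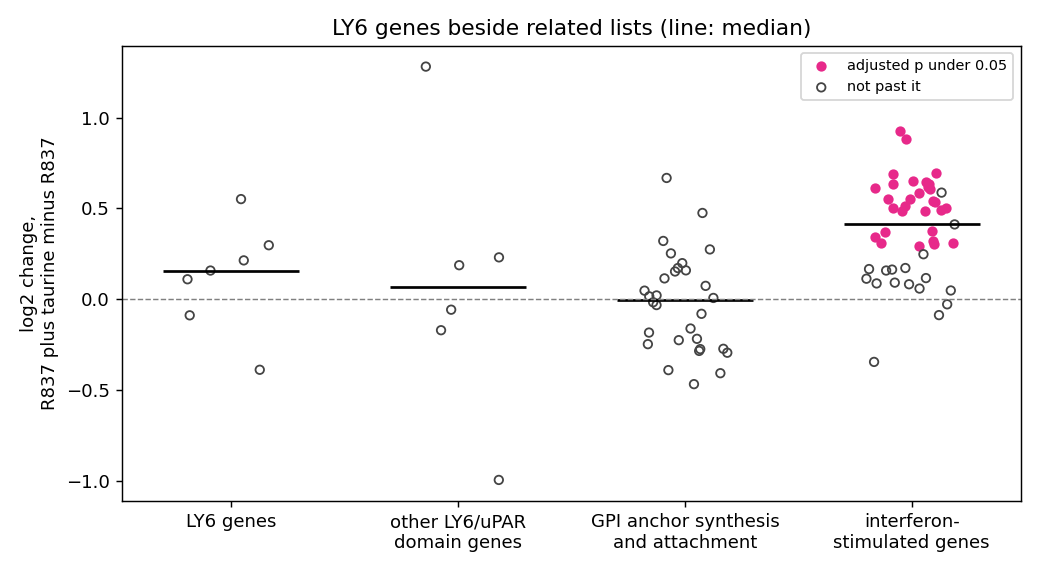
Log2 change in R837 plus taurine minus R837 of the tested LY6 genes (7), other LY6/uPAR domain genes (6), GPI anchor genes (30) and interferon-stimulated genes (47), with a line at each median. Filled points passed an adjusted p of 0.05 in limma: 30 interferon-stimulated genes and 0 genes of the other lists.

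Within the chromosome 15 interval the files list 24 genes, 16 of them not among the 8. Of these, 6 passed the filter and 0 were called by limma. The neighbour with the largest level, 2010109I03Rik between Ly6k and Ly6e, averaged 134 with taurine and 83.0 with R837 alone (log2 change 0.70, adjusted p = 0.108). The steroid hydroxylase genes Cyp11b1 and Cyp11b2 averaged 3.36 and 1.06 with taurine and 1.57 and 2.20 with R837 alone. Of the 16, 4 had no read in any library.

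For each tested LY6 gene, the genes with the most similar pattern were sought among 9655 tested genes with a mean of at least 100 and no predicted or clone name, by the mean absolute difference of log2 deviations over the 6 libraries. For Ly6d these were Tmem184b, Zbtb17 and Rilpl2 (differences 0.0142 to 0.0157), and for Ly6e H2-DMb1, Zfp36 and Dynll1 (0.0106 to 0.0173). For Ly6a they were Mief1, Slc39a1 and Wfdc17, for Ly6c1 Mcph1, Pop1 and Ckap4, and for Ly6c2 Tnip2, Yipf1 and Pde6d. For Ly6i they were Letm2, S100a4 and Sardhos. For Ly6k they were Nasp, Smim3 and Rps27l, all 3 of which were called by limma (adjusted p = 0.0219, 0.0177 and 0.0235) with changes of 0.55, 0.51 and 0.48. With 6 libraries such likeness is a description of the pattern only.

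**Figure D5:**
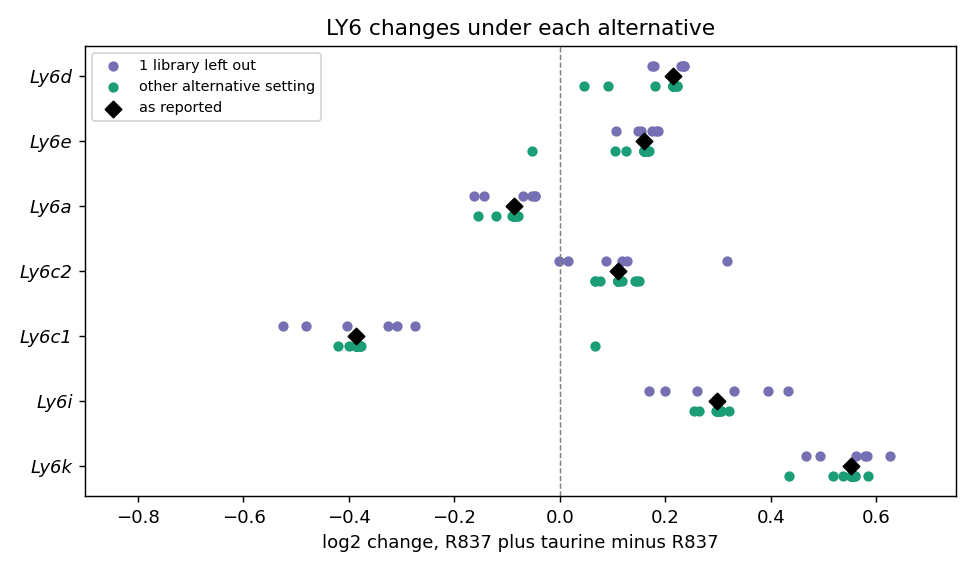
Log2 change in R837 plus taurine minus R837 of each tested LY6 gene as reported (diamonds), with 1 library left out (purple) and under the other alternative settings (green). Ly6a, Ly6d, Ly6i and Ly6k keep their sign in all of these, while Ly6e crosses 0 under quantile normalization, Ly6c2 without taurine replicate 1 and Ly6c1 when its reads are summed with those of Ly6c2.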

How the data were processed

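Per the file headers, the deposited signal of a gene is its normalized count. Dividing by the step of its library gave whole numbers for 100% of values (tolerance 0.001), so reads could be recovered. The submitters' processing notes list HISAT2, StringTie, mm8 and mm10, and the sources used here do not give the counting and normalizing tools or the strand setting. Of 52403 identifiers shared with GENCODE M21 (GRCm38), 95.2% had identical coordinates.

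Tests used log2(normalized count + 1) of genes with at least 10 in at least 3 of 6 libraries, in limma 3.58.1 (R 4.3.3, empirical Bayes with trend, two-sided, Benjamini-Hochberg over 15265 genes). edgeR 4.0.16 and DESeq2 1.42.0 ran on recovered reads; length and GC trends were removed with mgcv 1.9.3. The tests were tried on simulated data with changes larger than any of the LY6 genes and the same spread set for all genes. That trial therefore does not show how well changes as small as those of the LY6 genes are found. The members and lists were chosen with earlier results of these data known. Named genes were the 8 members, up to 4 of smallest p per related list, and the 3 most similar genes per member. Other genes, named as markers or neighbours, were chosen after their values were seen. Libraries of a group differed by more than sampling noise. Same-numbered libraries did not deviate together (r = -0.00264, -0.00681 and -0.0434), so replicate numbers were not used.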

Additional observations from a re-analysis of the deposited data

How the results depend on the processing

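All alternatives were planned. The number of LY6 genes called was 0, but 1 (Ly6d) with DESeq2; with 1 library left out it ran from 0 to 1, the 1 being Ly6d without R837 replicate 3. Values of opposite sign were -0.0524 for Ly6e under quantile normalization, -0.00133 for Ly6c2 without taurine replicate 1 (up to 0.317 with another library left out), and 0.0666 for Ly6c1 summed with Ly6c2; the sum is that of the more abundant gene, and the other causes were not tested. Over all genes, 979 calls became 1929 with DESeq2, 4 without the abundance trend, 547 without a filter and 615 with the replicate block, under which 0 LY6 genes were called, as without it. The calls were 340, 253 and 155 without taurine replicate 1, 2 or 3, and 326, 130 and 1503 without R837 replicate 1, 2 or 3, each with 5 libraries in place of 6. Scaling without the 50 most abundant genes gave 462 higher and 586 lower against 573 and 406, and removal of length and GC trends 663 and 303. With 114 to 195 reads per library, counting error limits Ly6k.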
